A study of Rattus norvegicus with 48 samples.

Results

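The miR-30 family of microRNAs (miRNAs) was described in the livers of rats treated with thioacetamide (TAA). The members were the mature miRNAs of the count table whose names start with rno-miR-30a, rno-miR-30b, rno-miR-30c, rno-miR-30d or rno-miR-30e. This rule found 11 among 664 mature miRNAs for which any read was counted. The 5 members of the 5p arm were rno-miR-30a-5p, rno-miR-30b-5p, rno-miR-30c-5p, rno-miR-30d-5p and rno-miR-30e-5p. The 6 members of the 3p arm were rno-miR-30a-3p, rno-miR-30b-3p, rno-miR-30c-1-3p, rno-miR-30c-2-3p, rno-miR-30d-3p and rno-miR-30e-3p. All 11 were among the 301 miRNAs tested, which had at least 5 RPM (reads of a miRNA per 1e6 miRNA reads of the library) in at least 3 of the 48 libraries. Male Sprague-Dawley rats had received TAA once a day at 4.5 mg/kg (low dose), 15 mg/kg (middle dose) or 45 mg/kg (high dose), or vehicle alone (control, 0 mg/kg), for 3, 7, 14 or 28 days (called 3-d to 28-d). Each of the 12 treatment conditions and each of the 4 time-matched control groups held 3 rats, whose ages are not given in the sources used here. Each library was made from total RNA of a liver section, so fewer cells of a type and less RNA per cell cannot be told apart. Samples of a group are taken as separate rats, as the study's methods describe, and p-values measure the spread between them.

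A miRNA hairpin can release a mature strand from each of its arms, called 5p and 3p, and the more abundant strand is the one mostly loaded into the silencing complex. A miRNA recognizes its target mRNAs mainly through its seed, bases 2 to 8 of the mature strand, and represses them. The 5p strands of the miR-30 family share a seed, so they are expected to share many targets. Described targets include Snai1, a transcription factor that drives epithelial cells towards a mesenchymal state, and Ctgf, a matrix-inducing growth factor, and for this reason the family is often described as restraining fibrosis. TAA is a hepatotoxicant that is activated in hepatocytes and injures and scars the liver on repeated dosing.

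Mature sequences were found for 6 of the 11 members in RefSeq (build GRCr8), and they are shown because the seed is what makes the 5p members a family and the other bases are what tells their reads apart. The seed is in capitals and each sequence is written from the 5′ end.
miR-30a-5p: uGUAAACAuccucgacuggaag
miR-30e-5p: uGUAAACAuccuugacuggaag
miR-30c-5p: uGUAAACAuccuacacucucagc
miR-30a-3p: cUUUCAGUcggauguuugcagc
miR-30c-1-3p: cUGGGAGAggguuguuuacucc
miR-30c-2-3p: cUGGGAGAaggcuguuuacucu
miR-30b-5p, miR-30b-3p, miR-30d-5p, miR-30d-3p and miR-30e-3p are named only. The 5p sequences shown share the seed GUAAACA. Of the 693 mature rat miRNAs with a sequence in this source, 4 held it (0.577%), the other one being miR-384-5p. miR-30b-5p and miR-30d-5p are not among the 693 and were not counted. Counted from 1 at the 5′ end, miR-30a-5p and miR-30e-5p were identical at 21 of 22 positions and differed by C13U alone. miR-30a-5p and miR-30c-5p were identical at 17 of 22 positions. The 3p strands of the miR-30c hairpins share another seed, UGGGAGA, and differ from each other by G9A, U12C and C22U, so their reads can be told apart. miR-30c-5p is the same 23 bases in both hairpins, so its reads cannot be assigned to one of them.

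In GRCr8, miR-30a-5p lies at chr9:33233946-33233967 and miR-30a-3p at chr9:33233987-33234008 on the plus strand. On the same strand, the Mir30c2 hairpin gives miR-30c-5p at chr9:33253695-33253717 and miR-30c-2-3p at chr9:33253735-33253756, and it lies in a long noncoding RNA gene, LOC134480562, and in a pseudogene, Rbx1-ps1. On the minus strand of chromosome 5, the Mir30c1 hairpin gives miR-30c-5p at chr5:139634505-139634527 and miR-30c-1-3p at chr5:139634467-139634488, and the Mir30e hairpin gives miR-30e-5p at chr5:139637504-139637525. Both of these hairpins lie in Nfyc, the gene of a subunit of the transcription factor NF-Y. Mir30b and Mir30d lie together in the long noncoding RNA gene LOC102551574. The reads were counted against miRBase release 21 and not against these positions.

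Library totals were between 4829217 and 14906217 counts in 47 libraries, and 293331 in control 3-d replicate 1. The upper limit that a count of 0 allows is 3 counts, for counting error only, which was at most 0.621 RPM in the 47 libraries and to 10.2 RPM in that library. The lowest count of any member in the 47 libraries was 120, for miR-30b-3p. The family took between 6.17% and 7.92% of all miRNA reads in the 47 libraries (median 6.78%) and 14.7% in control 3-d replicate 1. There miR-30d-5p stood at 107742 RPM, beside 1295 RPM of miR-30b-5p and 5853 RPM of miR-30e-5p. This library stood apart from the other 3-d controls in most members, and results at 3-d are therefore given with and without it. Low 28-d replicate 29 was unlike its group. Across the 301 tested miRNAs, the log2 deviations of low 28-d replicate 29 from the mean of 11 controls correlated at r = 0.78 with those of the low dose at 7-d and 14-d, and at r = 0.24 with those of its group mates. Its group mates, replicates 28 and 30, correlated with each other at r = 0.65. High 7-d replicate 27 correlated at r = 0.84 with the same low dose libraries and at r = 0.66 with its group mates, which differed more from each other (chi-square per degree of freedom 1515) than from it (1008 and 1170). These correlations are across miRNAs, all deviations share the same 11 controls, and they are descriptions. No library was identical to another.

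In the 11 controls without control 3-d replicate 1, the 5p members were among the abundant miRNAs of the liver. Values here and below are upper quartile normalized RPM, which scale each library by its upper quartile of counts. miR-30a-5p had a mean of 27315 ± 4187 (SD, n = 11) and ranked 10 among the 664 miRNAs with a read. It was followed by miR-30d-5p with 20127 ± 1942 (rank 13) and miR-30e-5p with 15207 ± 1385 (rank 16). miR-30c-5p reached 6677 ± 374 (rank 22) and miR-30b-5p 3295 ± 316 (rank 29). The mature strands differ by at most 1 base in length where the sequence is known, so no correction for length was made. The ranges of neighbours in this order overlapped between miR-30a-5p and miR-30d-5p (23221 to 36022 and 17837 to 24401) and between miR-30d-5p and miR-30e-5p (13865 to 18152 for the latter), and not between the others. The group means had this order in each group except control 3-d, where miR-30d-5p was highest with control 3-d replicate 1 included, and middle 28-d, where the mean of miR-30e-5p (13718) was above that of miR-30d-5p (13379).

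**Figure D1:**
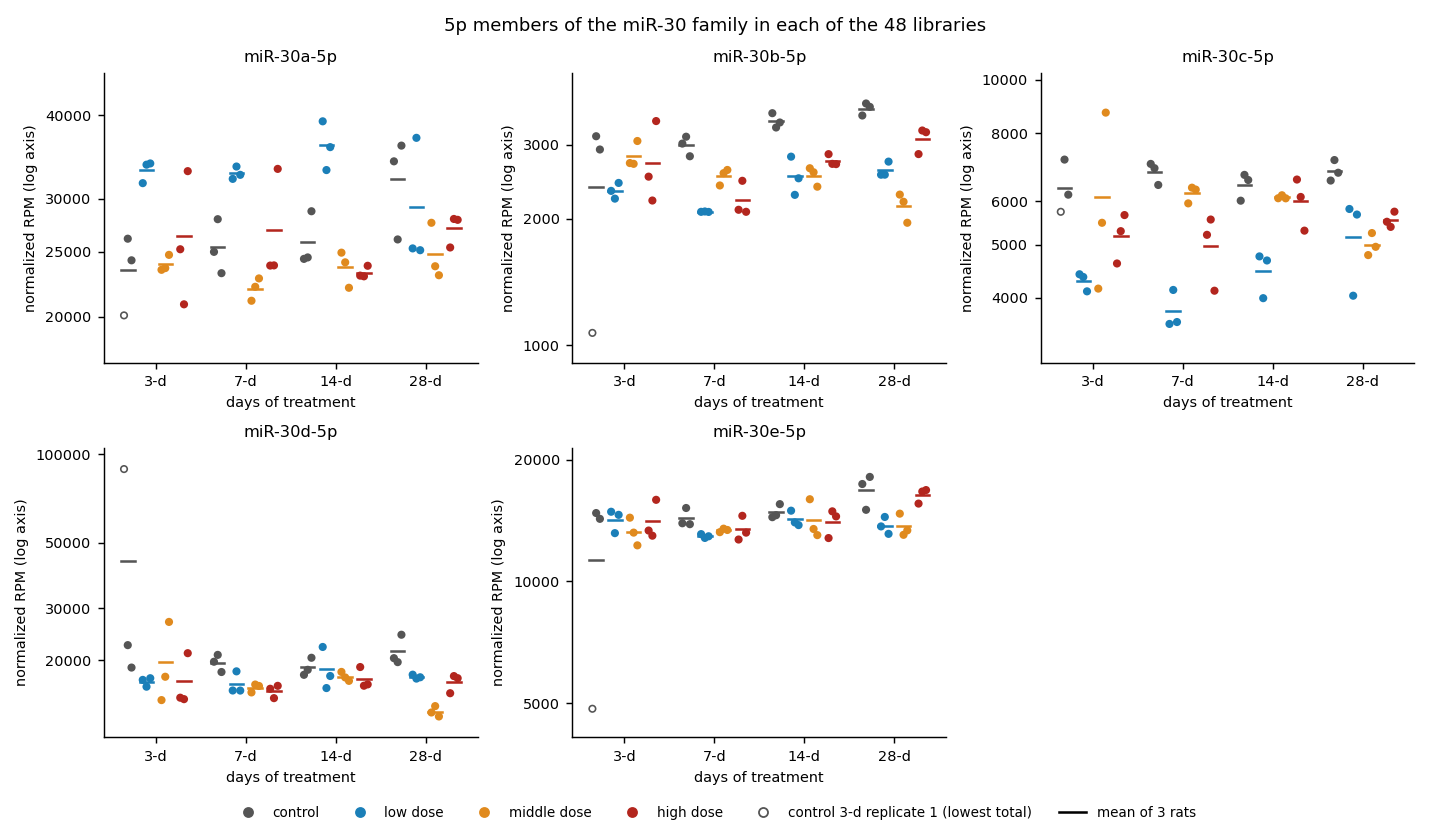
Upper quartile normalized RPM (log axis) of the 5 members of the 5p arm in each library, by days of treatment, with a point per rat, a line at the mean of 3 rats and an open point for control 3-d replicate 1. The low dose rats at the first 3 time points lie above the controls of the same time for miR-30a-5p (31657 to 39164) and below them for miR-30c-5p (3586 to 4763), and the 3 middle dose rats at 28-d lie below their controls for miR-30b-5p and miR-30d-5p.

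The 3p members were much less abundant in the same 11 controls. miR-30a-3p had a mean of 521 ± 82.6 (SD, n = 11) and miR-30e-3p of 507 ± 83.4, and their ranges overlapped (383 to 634 and 419 to 662). miR-30d-3p had a mean of 165 ± 47.7, miR-30c-2-3p of 53.4 ± 7.37, miR-30c-1-3p of 29.2 ± 7.26 and miR-30b-3p of 25.1 ± 8.40. miR-30d-3p overlapped with neither neighbour in this order, and the last 3 overlapped from one to the next, at 44.7 to 66.0 for miR-30c-2-3p, 20.2 to 47.8 for miR-30c-1-3p and 11.3 to 41.4 for miR-30b-3p. The rank of miR-30b-3p was 187 among the 664 miRNAs with a read, so the 11 members lay between ranks 10 and 187. Over the 47 libraries the spread was smallest for miR-30e-5p, whose highest value was 1.48 times its lowest, and largest for miR-30b-3p at 4.76 times.

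The first question of the design is which miRNAs differ between TAA and time-matched controls in each of the 12 conditions. A miRNA was called a differentially expressed miRNA (DEM) where its fold change was over 1.5 and its p-value, before adjustment, was under 0.05 by the quasi-likelihood test of edgeR. Of the 132 tests of a member in a condition, 9 were DEMs (6.82%), beside 18.1% of the 3612 tests of all miRNAs. Of these 9, 2 were higher and 7 lower, where lower DEMs made up 5.98% of all tests. When the p-value was adjusted by Benjamini-Hochberg over all miRNAs, 8 were called (6.06%), beside 11.1% of all tests. Without regard to fold, the p-value before adjustment was under 0.05 in 44 of the 132 (33.3%), beside 28.8% of all tests. Treated and control values did not overlap in 57 (43.2%), beside 35.5% of all tests in either direction. Of the 57, 45 had the treated rats lower and 12 higher. The share of DEMs was thus below the background and the share of changes at any fold near it. The share of lower DEMs depended on the scaling, since with TMM 13 members were lower (9.85%), beside 6.87% of all tests, and 16 were called (12.1%), beside 17.6%. The median log2 fold change was -0.13 over the member tests and 0.06 over all tests.

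By condition, the number of members called was 1 of 11 in low 3-d (16.6% of all miRNAs), 2 in low 7-d (28.9%), 0 in low 14-d (32.6%) and 0 in low 28-d (12.3%). It was 0 in middle 3-d (2.99%), 0 in middle 7-d (15.9%), 1 in middle 14-d (17.3%) and 5 in middle 28-d (32.9%). No member was called by edgeR in high 3-d (11.3%), high 7-d (21.3%), high 14-d (9.3%) or high 28-d (15.3%). In these 8 conditions without a call, between 0 and 5 members had an unadjusted p-value below 0.05 at a smaller fold. The conditions at a time point share their 3 controls and are not independent of each other. With upper quartile scaling, all 11 members were below 0 in middle 14-d, high 14-d and middle 28-d. The medians over the members there were -0.35, -0.23 and -0.54, beside 0.006, -0.04 and 0.02 over all miRNAs. With library size alone, miR-30a-5p, miR-30c-5p, miR-30d-5p and miR-30e-5p were between 0.04 and 0.14 in middle 14-d and high 14-d. Also above 0 were miR-30b-3p in middle 14-d (0.04) and miR-30c-1-3p in high 14-d (0.20). In middle 28-d, miR-30a-3p (0.10) and miR-30b-3p (0.05) were above 0 under that scaling. The medians over all miRNAs under it were 0.18 in middle 14-d, 0.17 in high 14-d and 0.30 in middle 28-d. These member values above 0 lay below the median of their condition, except that of miR-30c-1-3p in high 14-d.

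**Figure D2:**
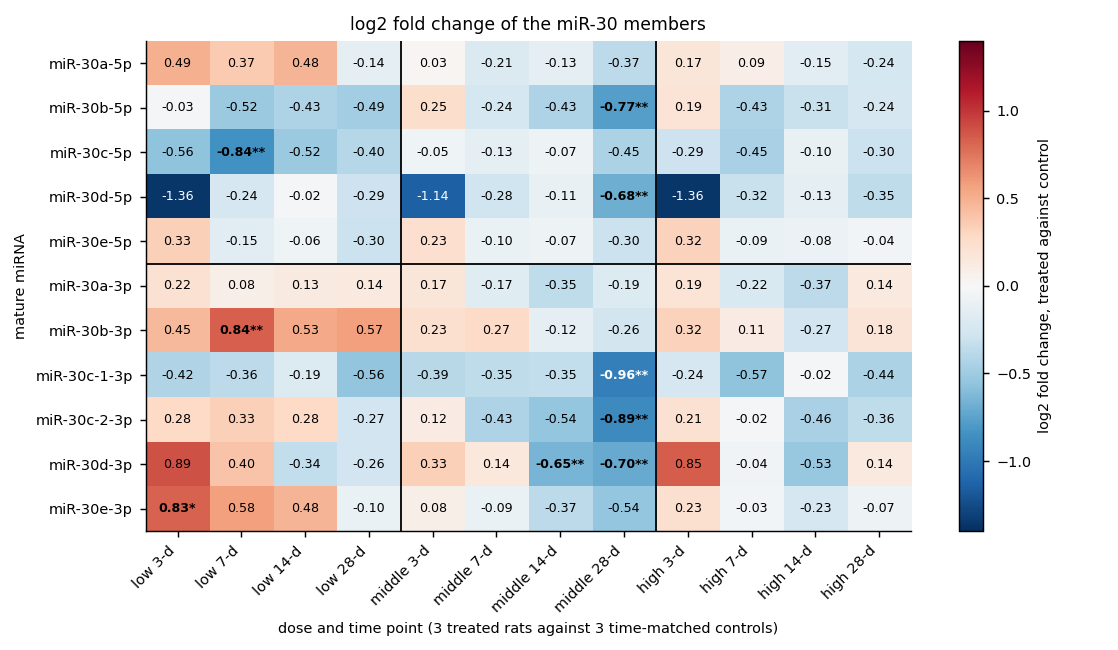
Log2 fold change of the 11 members (rows, 5p above 3p) in the 12 conditions (columns, 3 treated rats against 3 controls), on a colour scale from blue (lower) to red (higher). An asterisk marks a DEM and a double asterisk a DEM with an adjusted p-value below 0.05. The 5 calls of middle 28-d lie between -0.96 and -0.68, and miR-30d-5p is at or below -1.14 in the 3 conditions of 3-d, which share control 3-d replicate 1.

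After 28 days at the middle dose, 5 members from the hairpins of miR-30b, miR-30c and miR-30d were lower than in controls (12% of all miRNAs were lower DEMs there). miR-30b-5p stood at 2283, 2195 and 1957 normalized RPM in the treated rats and at 3519, 3758 and 3689 in the controls. All 3 treated rats were below the controls, with a log2 fold change of -0.77 (SE 0.15, adjusted p = 0.0038). miR-30d-5p stood at 13289, 13967 and 12881 in the treated rats and at 20318, 19698 and 24401 in the controls. Its log2 fold change was -0.68 (SE 0.14, adjusted p = 0.0048), again without overlap, and -0.58 without control 28-d replicate 18, which no longer passes the fold threshold. Both strands of the miR-30d hairpin were lower, as miR-30d-3p stood at 115 ± 4.90 in the treated rats and at 188 ± 25.9 in the controls (n = 3 each, log2 fold change -0.70, SE 0.17, adjusted p = 0.0103).

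The 3p strands of both miR-30c hairpins were lower in the same rats. miR-30c-2-3p stood at 32.5, 33.3 and 31.7 in the treated rats and at 56.4, 59.1 and 66.0 in the controls, with a log2 fold change of -0.89 (SE 0.16, adjusted p = 0.00188). miR-30c-1-3p stood at 15.7, 18.4 and 19.2 in the treated rats and at 29.8, 26.5 and 47.8 in the controls, with a log2 fold change of -0.96 (SE 0.23, adjusted p = 0.0103). The other strand of these hairpins, miR-30c-5p, was at 5001 ± 235 against 6821 ± 298 (log2 fold change -0.45, SE 0.14, adjusted p = 0.0316), below the 1.5-fold threshold. miR-30e-3p had a log2 fold change of -0.54 (SE 0.18, adjusted p = 0.0382), also below it. Treated and control values did not overlap for 8 of the 11 members, all lower. Among all miRNAs 48.5% did not overlap, in either direction, and the part of these that was lower was not counted. The median over the members was -0.54 and over all miRNAs 0.02. Scaled by library size alone, miR-30b-5p, miR-30d-5p and miR-30d-3p lost the call with log2 fold changes of -0.49, -0.40 and -0.42, while miR-30c-1-3p and miR-30c-2-3p remained called.

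In the same condition, where 32.9% of all miRNAs were called in either direction, 3 of the 4 red blood cell miRNAs were lower. Their summed level was 1452 to 3270 in the treated rats and 2955 to 5298 in the controls, over all 4. Of the 4 hepatocyte miRNAs, miR-122-5p was lower (log2 fold change -0.61, SE 0.16, adjusted p = 0.0164), and the summed level was 279567 to 333398 against 324869 to 349192. Of the 5 stellate or smooth muscle miRNAs, miR-199a-5p and miR-214-3p were higher, and the summed level was 32326 to 37100 against 26575 to 43922. Of the 5 epithelial or bile duct miRNAs, miR-200c-3p was higher and miR-429 lower (summed level 709 to 769 against 655 to 1061), and none of the 5 leukocyte or 2 endothelial miRNAs was called. Some summed levels, here and below, rest mostly on a single miRNA of the list. For hepatocytes it is miR-192-5p (median 210078 normalized RPM, beside 62011 for miR-148a-3p and 35382 for miR-122-5p). For stellate or smooth muscle it is miR-143-3p (40506, beside at most 682 for the others), and for red blood cells miR-486 (3769, beside at most 232). The hepatocyte and the smooth muscle lists held no marker at a count of 0 in any library, nor did the red blood cell list. The part of these cells in the members' values was not tested.

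At 14 days of the middle dose, miR-30d-3p was lower, at 143, 125 and 136 in the treated rats and 175, 268 and 189 in the controls. The log2 fold change was -0.65 (SE 0.18, adjusted p = 0.0258), and it was -0.44 without control 14-d replicate 14, the highest value of this strand in any library, which no longer passes the fold threshold. Its partner miR-30d-5p had a log2 fold change of -0.11 (SE 0.09) there. In this condition, where 17.3% of all miRNAs were called in either direction, all 4 red blood cell miRNAs were lower. Their summed level was 2074 to 3138 in the treated rats and 4042 to 5332 in the controls. miR-200c-3p was the single epithelial or bile duct miRNA called, and it was higher. No stellate or smooth muscle, endothelial, hepatocyte or leukocyte miRNA was called by edgeR. The summed level of the smooth muscle list (30562 to 34598 against 43630 to 44646) and of the endothelial list (20213 to 22040 against 24136 to 26054) lay below the controls without overlap. The part of these cells in the value of miR-30d-3p was not tested.

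At the low dose the members went in opposite directions. miR-30c-5p was lower at 7-d, at 3586, 4137 and 3615 in the treated rats and 7027, 6901 and 6431 in the controls. The groups were far apart, with a log2 fold change of -0.84 (SE 0.09, adjusted p = 0.000239), and the call was kept under each of the 18 alternatives. At 3-d the values were 4419, 4368 and 4113 against 5745, 7155 and 6174 in the controls, and at 14-d they were 4763, 3996 and 4682 against 6020, 6710 and 6567. The treated rats were below the controls at both times. The log2 fold changes of -0.56 (SE 0.23, adjusted p = 0.26) and -0.52 (SE 0.12, adjusted p = 0.00565) did not meet both thresholds with upper quartile scaling. Without control 3-d replicate 1, the value at 3-d was -0.63 (SE 0.10, adjusted p = 0.011), which met them, beside 23.6% of all miRNAs in that comparison. With TMM, DESeq2 size factors and library size, all libraries kept, miR-30c-5p was called at both times. Its log2 fold changes were -0.82, -0.86 and -0.80 at 3-d and -0.68, -0.65 and -0.67 at 14-d. Of all tests, 17.6%, 17.6% and 19.2% were called under these scalings, pooled over the 12 conditions.

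miR-30b-5p was likewise below its controls at the low dose without passing the fold threshold with upper quartile scaling. At 7-d it stood at 2077, 2082 and 2076 in the treated rats and 3018, 3133 and 2816 in the controls, a log2 fold change of -0.52 (SE 0.08, adjusted p = 0.00153). At 14-d the log2 fold change was -0.43 (SE 0.12, adjusted p = 0.0174). At 3-d it was -0.03 (SE 0.43), and -0.38 (SE 0.09, adjusted p = 0.036) without control 3-d replicate 1, in which miR-30b-5p was at 1071. With library size alone miR-30b-5p was called at 7-d (-0.64), and with TMM at 14-d (-0.59).

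By contrast, miR-30e-3p and miR-30b-3p, the less abundant strands of their hairpins, were higher at the low dose. miR-30e-3p stood at 717, 675 and 679 at 3-d, against 293, 452 and 419 in the controls. Its log2 fold change was 0.83 (SE 0.27) with an unadjusted p-value that passed and an adjusted p = 0.219 that did not. Without control 3-d replicate 1 it was 0.67 (SE 0.11, adjusted p = 0.011). The call at 3-d was kept under 11 of 18 alternatives and lost under 7, with a lowest log2 fold change of 0.49. At 7-d and 14-d miR-30e-3p was higher by 0.58 (SE 0.10, adjusted p = 0.00218) and 0.48 (SE 0.16, adjusted p = 0.03) on the log2 scale, below the fold threshold. miR-30b-3p stood at 30.1, 42.2 and 34.9 at 7-d, against 17.8, 22.2 and 19.9 in the controls, a log2 fold change of 0.84 (SE 0.17, adjusted p = 0.00422). That call was lost when all 12 controls were pooled (0.54).

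miR-30a-5p, the most abundant member, was above its controls at the low dose at the first 3 time points without overlap and without a call. At 14-d it stood at 39164, 33115 and 35835 in the treated rats and 24392, 24514 and 28738 in the controls, a log2 fold change of 0.48 (SE 0.11, adjusted p = 0.00581). The low dose at 7-d had 8 of the 11 members without overlap, 5 higher and 3 lower, beside 53.2% of all miRNAs. In that condition 28.9% of all miRNAs were called in either direction, which is the background for the lists here. miR-122-5p of the hepatocyte list was higher. The summed level of that list was 357231 to 413749 in the treated rats and 276221 to 309421 in the controls. Of the 5 epithelial or bile duct miRNAs, miR-200b-3p and miR-429 were lower, and the summed level was 395 to 492 against 1007 to 1086. Of the 5 leukocyte miRNAs, 1 was higher and 2 were lower, and the summed level was 1868 to 2851 against 2984 to 3495. Of the red blood cell miRNAs, 2 of 4 were lower, and the summed level was 3784 to 4524 against 3816 to 6242. Of the stellate or smooth muscle miRNAs, miR-145-5p was lower. The summed level of that list, mostly miR-143-3p, was 44624 to 51049 against 40682 to 45939. The part of these cells in the members' values was not tested.

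**Figure D3:**
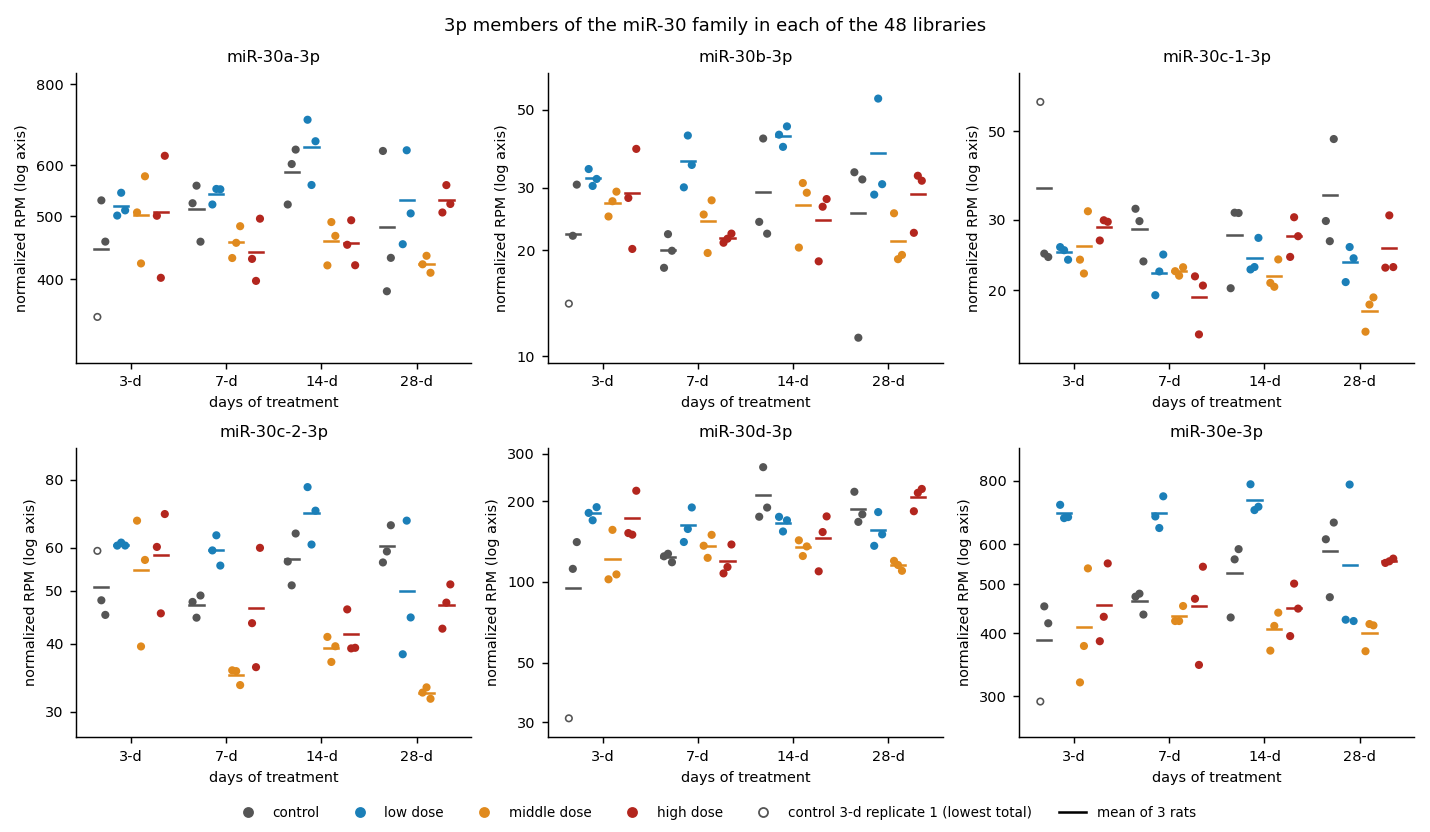
Upper quartile normalized RPM (log axis) of the 6 members of the 3p arm in each library, by days of treatment, with a point per rat, a line at the mean of 3 rats and an open point for control 3-d replicate 1. For miR-30e-3p the low dose rats at the first 3 time points lie between 646 and 788 with low 28-d replicate 29 at 787 beside them, and the middle and high dose rats lie between 320 and 562.

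At 3-d the size of the miR-30d-5p change rested on one control library. It stood at 89095 in control 3-d replicate 1 and at 22497 and 18879 in the other 3-d controls. The log2 fold change was -1.36 (SE 0.62, adjusted p = 0.272) at low dose and -1.36 (SE 0.61, adjusted p = 0.4) at high dose, and neither was called. Without that library these were -0.29 (SE 0.10, adjusted p = 0.08) and -0.29 (SE 0.22, adjusted p = 0.601).

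The contrast of all treated with all control groups asks whether a member differed on average over the 12 conditions. No member was called by edgeR in a fit of all 48 libraries, because no average reached 1.5-fold, beside 14% of all miRNAs. At any fold, 4 members had an adjusted p-value below 0.05 and all were lower, where 41.2% of all miRNAs passed. The average log2 difference was -0.35 for miR-30c-5p (SE 0.07, adjusted p = 8.80e-05) and -0.29 for miR-30b-5p (SE 0.08, adjusted p = 0.00302). For miR-30c-1-3p it was -0.38 (SE 0.09, adjusted p = 0.0013). For miR-30d-5p it was -0.52 (SE 0.11, adjusted p = 4.00e-04), and -0.26 without control 3-d replicate 1. Over the 9 conditions from 7-d on, miR-30d-5p no longer passed (-0.27, adjusted p = 0.124), and miR-30c-2-3p did (-0.26, adjusted p = 0.0196). By condition, miR-30c-5p, miR-30c-1-3p and miR-30d-5p were below 0 in all 12 with upper quartile scaling. Over the 4 scalings tried they were below 0 in 10, 11 and 10 conditions, the exceptions being values of at most 0.20 at 14-d of the middle and high dose. Without control 3-d replicate 1, miR-30c-1-3p was above 0 at 3-d, by 0.03, 0.07 and 0.23 at low, middle and high dose. miR-30c-5p and miR-30d-5p stayed below 0 there. miR-30a-5p had an average of 0.03 (SE 0.06) and was below 0 in 6 conditions and above it in 6.

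The comparison of doses at the same time point does not use the controls. In 132 tests of a member, 18 were called (13.6%), 2 with the higher dose above the lower dose and 16 below it. Calls in either direction made up 18.3% of all tests. With an adjusted p-value below 0.05, 13 were called (9.85%), beside 10.1%. With library size alone the count was 6, with 5 above and 1 below, so the predominance of lower values at the higher doses is not seen under that scaling. Of the 13, 11 set the low dose above another dose, with miR-30e-3p, miR-30c-2-3p and miR-30a-5p as the members. The background of calls with an adjusted p-value below 0.05 was 10.6%, 25.6%, 19.6% and 4.32% for middle minus low dose, in order of time from 3-d to 28-d. It was 13% and 18.3% for high minus low dose at 3-d and 14-d, and 10.3% for high minus middle dose at 28-d.

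For miR-30e-3p, the middle dose was below the low dose by a log2 difference of -0.75 (SE 0.20, adjusted p = 0.0184) at 3-d. The difference was -0.67 (SE 0.20, adjusted p = 0.0124) at 7-d and -0.85 (SE 0.20, adjusted p = 0.0035) at 14-d. miR-30c-2-3p differed likewise, with the middle dose below the low dose by -0.76 (SE 0.19, adjusted p = 0.00299) at 7-d and -0.82 (SE 0.19, adjusted p = 0.00215) at 14-d. In those groups it stood at 59.3, 63.2 and 55.6 at low dose and at 35.8, 35.6 and 33.6 at middle dose at 7-d, without overlap. miR-30a-5p was below the low dose at 14-d by -0.60 (SE 0.15, adjusted p = 0.0043) at middle dose and -0.63 (SE 0.15, adjusted p = 0.00451) at high dose. miR-30c-5p went the other way, with the middle dose above the low dose by 0.72 (SE 0.16, adjusted p = 0.00177) at 7-d. Its difference at high minus low dose was 0.39 (SE 0.16, adjusted p = 0.12) at 7-d and 0.42 (SE 0.16, adjusted p = 0.0635) at 14-d, neither called. The high dose at 7-d includes replicate 27, where miR-30c-5p made up 5.97% of the family's 5p reads, against 8.71% and 9.08% in its group mates. At 28-d, miR-30d-3p was higher at high dose than at middle dose by 0.84 (SE 0.25, adjusted p = 0.0248). The difference of miR-30c-2-3p at middle minus low dose at 28-d, -0.62 (SE 0.19, adjusted p = 0.0443), fell to -0.35 without low 28-d replicate 29.

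Ratios of reads between members of a library do not depend on the scaling of libraries, and they were chosen for description after the levels had been seen. miR-30a-5p had between 7.16 and 9.01 reads per read of miR-30c-5p in the 9 libraries of the low dose at the first 3 time points. The ratio was between 3.56 and 5.32 in the 11 controls and between 2.84 and 5.82 at middle and high dose, except for high 7-d replicate 27, where it was 8.06. miR-30e-5p had 17.4 to 21.6 reads per read of miR-30e-3p in the same 9 libraries, 26.1 to 34.1 in the 11 controls and 22.9 to 45.0 at middle and high dose. The 9 libraries thus overlapped neither the 11 controls nor the middle and high dose in the second ratio. miR-30a-5p had 13.6 to 16.1 reads per read of miR-30b-5p in the 9 libraries and 6.84 to 9.76 in the controls, and the middle and high dose reached their highest value, 16, in high 7-d replicate 27.

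The low dose at 28-d did not follow as a group. Low 28-d replicate 29 had a ratio of miR-30a-5p to miR-30c-5p of 9.16 and of miR-30e-5p to miR-30e-3p of 18.4, the first just above the range of the 9 earlier low dose libraries and the second within it. Its group mates, replicates 28 and 30, had 4.35 to 4.42 and up to 32.2, among the controls. miR-30c-5p stood at 4038 in replicate 29 and at 5814 and 5680 in the others, and miR-30e-3p at 787 against 425 and 423. The 9 low dose libraries of the first 3 time points carry the running numbers 40 to 48 in the labels, so the order of numbering and the group cannot be told apart for them. Replicates 27 and 29 carry numbers outside this run, and the labels name no batch. Whether libraries were exchanged was not tested.

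**Figure D4:**
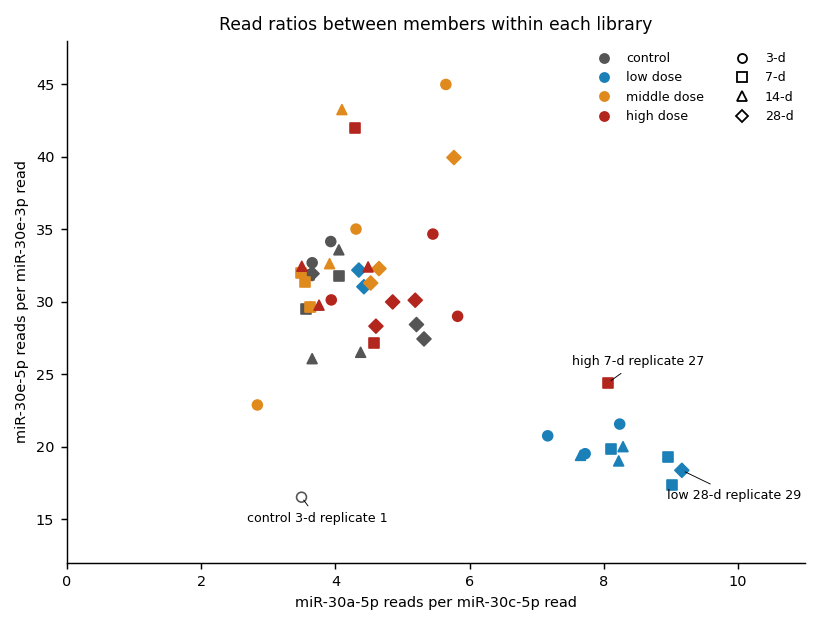
Reads of miR-30e-5p per read of miR-30e-3p (vertical axis) against reads of miR-30a-5p per read of miR-30c-5p (horizontal axis), with a point per library, colour for dose and shape for time. The 9 low dose libraries of the first 3 time points lie at 7.16 to 9.01 and 17.4 to 21.6, low 28-d replicate 29 lies next to them at 9.16 and 18.4 with high 7-d replicate 27 nearby at 8.06 and 24.4, and the 11 controls lie at 3.56 to 5.32 and 26.1 to 34.1.

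The balance of the arms was examined for the miR-30a, miR-30b, miR-30d and miR-30e hairpins as the log2 ratio of 5p to 3p reads in each library. All 9 treated rats of a time point were compared with its 3 controls by a two-sided exact permutation test, whose smallest p-value is 0.00909 over 220 arrangements. None of the 16 tests passed after Benjamini-Hochberg adjustment, and 3 had an unadjusted p-value below 0.05. A test at the smallest p-value passes this adjustment only if several others reach it too. Complete separation of treated and control rats was thus not in itself enough to pass. At 7-d the log2 ratio of miR-30b was 6.42 ± 0.46 in the treated rats (SD, n = 9) and 7.23 ± 0.15 in the controls (n = 3), with no overlap, and the difference of -0.80 had a permutation p = 0.00909 (adjusted p = 0.0727). For miR-30d at 7-d it was 6.87 ± 0.24 against 7.31 ± 0.04, also with no overlap, and the difference of -0.44 had the same exact p-values. For miR-30a at 14-d it was 5.73 ± 0.13 against 5.47 ± 0.11, and the difference of 0.27 had a permutation p = 0.0182 (adjusted p = 0.097). The 5p strand outnumbered the 3p strand in every library, by 17.4 to 45.0 times for miR-30e outside control 3-d replicate 1. The low dose rats of the first 3 time points were the lowest of their time point for miR-30e, except for that control at 3-d.

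**Figure D5:**
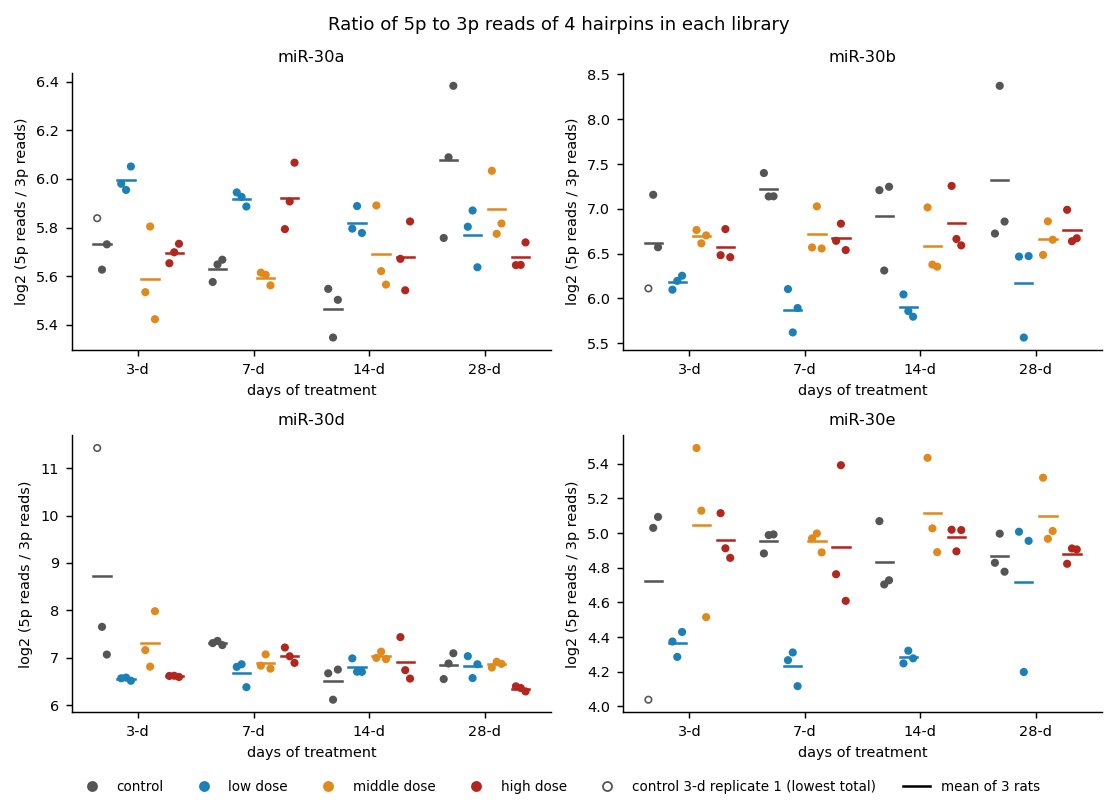
Log2 ratio of 5p to 3p reads (vertical axis) of 4 hairpins in each library, by days of treatment, with a point per rat, a line at the mean of 3 rats and an open point for control 3-d replicate 1. For miR-30d that library lies at 11.4 while the other 3-d controls lie at 7.07 and 7.65, and for miR-30b at 7-d all 9 treated rats lie between 5.62 and 7.03, below the controls.

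Whether the effect of a dose changed with time was tested as the difference of treatment effects between time points. Of 132 tests, 20 were called (15.2%), 5 of them with a rise and 15 with a decline of the effect. Calls in either direction made up 16% of all tests. Only 2 had an adjusted p-value below 0.05 (1.52%, beside 2.93% of all tests), and both were at the middle dose between 3-d and 28-d, where 4.98% of all miRNAs passed. The effect on miR-30b-5p changed by -1.01 (SE 0.28, adjusted p = 0.0225) and by -0.67 without control 3-d replicate 1. The effect on miR-30c-2-3p changed by -1.04 (SE 0.27, adjusted p = 0.0154) and by -1.12 without it. Among the controls alone, 1 of 44 tests was called (2.27%), miR-30d-5p at 7-d minus 3-d (-1.15, SE 0.47, adjusted p = 0.298), beside 8.89% of all tests pooled and 11.3% in that contrast. With adjusted p-values edgeR called 0 of the 44, beside 0.415% of all tests. Without control 3-d replicate 1, 2 tests were called, both higher at the later time.

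The miRNAs most like each 5p member were taken as the 3 outside the family with the highest Pearson's r of log2 (normalized RPM + 1) over the 48 libraries. For miR-30b-5p these were miR-26a-5p (r = 0.92), miR-22-3p (0.87) and miR-194-5p (0.85), and they were 0.90, 0.79 and 0.77 over 47 libraries without control 3-d replicate 1. For miR-30a-5p they were miR-1843a-5p (0.87), miR-148a-5p (0.84) and miR-122-5p (0.81), which were 0.86, 0.84 and 0.80 over 47 libraries. For miR-30c-5p they were miR-365-3p (0.79), miR-503-3p (0.77) and miR-128-3p (0.76), which were 0.79, 0.78 and 0.83. For miR-30d-5p they were miR-328a-3p (0.91), miR-339-5p (0.91) and let-7d-3p (0.90), and the values were 0.62, 0.69 and 0.58 without that library. For miR-30e-5p they were miR-101a-5p, miR-194-5p and miR-29a-5p (0.89 each), and the values were 0.56, 0.60 and 0.58 without it. The likeness of the last 2 members thus rested in good part on 1 library. Over the 47 libraries the first 3 were partly other miRNAs for each 5p member. miR-378b (0.82) replaced miR-122-5p for miR-30a-5p, and miR-23b-3p (0.84) and miR-365-3p (0.81) entered for miR-30b-5p. miR-150-5p and miR-429 (0.80 each) entered for miR-30c-5p, and miR-22-3p (0.73) and miR-26a-5p (0.68) for miR-30d-5p. All 3 were others for miR-30e-5p, namely miR-10a-3p, miR-126a-5p (0.67 each) and miR-144-3p (0.63). Within the family and over 47 libraries, miR-30a-5p went with miR-30e-3p (r = 0.84) and miR-30c-2-3p (0.75), and miR-30b-5p with miR-30c-5p and miR-30d-5p (0.69 each). miR-30a-5p and miR-30c-5p had r = -0.49. The libraries share groups, scaling and depth, so these values are descriptions.

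Beside the family, miRNAs described as restraining or promoting liver fibrosis were counted in the conditions with calls of members. In low 3-d none of the 7 restraining miRNAs was called by edgeR, and of the 8 promoting miRNAs 2 were higher and 1 was lower, where 16.6% of all miRNAs were called. In middle 14-d no restraining miRNA was called and 1 promoting miRNA, miR-34a-5p, was higher, beside 17.3%. Of the 7 restraining miRNAs, 3 were lower and 1 was higher in low 7-d, beside 28.9% of all miRNAs called. The lower ones were miR-29a-3p, miR-19b-3p and miR-133a-3p, and the higher one was miR-122-5p. In middle 28-d 2 were lower, miR-122-5p and miR-133a-3p, beside 32.9%. miR-133a-3p was scarce, with a median of 4.25 normalized RPM. Of the 8 promoting miRNAs, 1 was higher in low 7-d and 3 were higher in middle 28-d, which were miR-199a-5p, miR-214-3p and miR-34a-5p. miR-122-5p, miR-199a-5p and miR-214-3p are also in the cell type lists, so their calls are the same as those given above. miR-34a-5p, a transcriptional target of p53, rose by 3.48 (SE 0.14) in low 7-d and by 4.88 (SE 0.30) in middle 28-d on the log2 scale. No member of the miR-30 family moved by as much in any condition, the range of their log2 fold changes being -1.36 to 0.89.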

How the data were processed

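Small RNA libraries from 48 rat livers were sequenced by the authors, who trimmed the adaptor, kept reads of 18 to 25 bases and counted miRNAs with miRDeep2 against miRBase release 21 and the rn5 genome. The deposited values are raw read counts, with no normalization or filter by the authors. How reads that match several near-identical miRNAs were divided is not given in the sources used here. From these counts, the precursor row with the most reads was kept for each mature miRNA, and miRNAs with at least 5 RPM in at least 3 libraries were kept. Libraries were scaled by their upper quartile, and edgeR 4.0.16 (R 4.3.3) with its quasi-likelihood test was applied to the 6 libraries of each condition, to all 48 for the average, dose and time contrasts, and to the 12 controls for their time points. Adjusted p-values (Benjamini-Hochberg) are over all tested miRNAs. A call needed a fold over 1.5 and a p-value, before adjustment, under 0.05. Arm ratios (pseudocount 0.5 reads) were tested by exact permutation (scipy 1.17.1). Values of members that missed the call are also given where they neighbour one in the same hairpin, dose or condition, chosen after the values were seen. Alternatives were TMM and other scalings, other filters, DESeq2 1.42.0, pooled controls and leaving out single libraries. Named were every member, with log2 fold changes by condition where called and otherwise mostly as ranges, and at most 4 miRNAs of each list. Also named were the 3 tested miRNAs most like each 5p member by Pearson's r, over 48 and over 47 libraries. The r was of log2 (normalized RPM + 1). The lists were for hepatocytes, stellate or smooth muscle cells, leukocytes, red blood cells, bile duct or other epithelium, endothelium and fibrosis. The members and lists were chosen with earlier results of these data known. The scripts were checked on simulated data.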

Additional observations from a re-analysis of the deposited data

Results flagged for a closer look

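The following differences between doses, or between time points of a dose, were singled out because the difference itself had an adjusted p-value below 0.05 and a fold above 1.5 in edgeR. Values are log2 differences. For miR-30e-3p, the middle minus the low dose was -0.75 at 3-d, -0.67 at 7-d and -0.85 at 14-d, and the high minus the low dose was -0.60 at 3-d and -0.71 at 14-d. For miR-30c-2-3p, the middle minus the low dose was -0.76 at 7-d, -0.82 at 14-d and -0.62 at 28-d, and the high minus the low dose was -0.74 at 14-d. The 28-d value was -0.35 without low 28-d replicate 29. For miR-30a-5p at 14-d, the middle minus the low dose was -0.60 and the high minus the low dose -0.63. Over 53 alternatives each, these shrank to -0.29 and -0.27 at the least, and the call was lost in 6 and 5. For miR-30c-5p at 7-d, the middle minus the low dose was 0.72. For miR-30d-3p at 28-d, the high minus the middle dose was 0.84. The effect of the middle dose changed from 3-d to 28-d by -1.01 for miR-30b-5p, which was -0.67 without control 3-d replicate 1, and by -1.04 for miR-30c-2-3p. With library size alone, most of the differences that set the low dose above another dose lost their call.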

How the results depend on the processing

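The 9 calls of members in the 12 conditions became 16 with TMM, 22 with every miRNA that had a read, 14 with the DESeq2 Wald test and 14 in a single fit of all 48 libraries. The 0 calls on average became 1 with TMM, with every miRNA that had a read, with the DESeq2 Wald test and with DESeq2 size factors, an alternative added after seeing the data. The 18 dose calls became 6 with library size alone, and their split turned from 2 higher and 16 lower to 5 higher and 1 lower. The 20 time calls became 13 with TMM, 13 with the DESeq2 Wald test and 2 with adjusted p-values. The 1 call among controls became 0 with adjusted p-values and 2 without control 3-d replicate 1 and low 28-d replicate 29 (added after seeing the data). The cause was not tested. Leaving out single libraries gave 8 to 13 calls in the conditions, 0 to 1 on average, 15 to 21 between doses, 14 to 29 between times, 0 to 2 among controls and 0 to 0 for the arm ratios. No value of a named member reversed, while the 1 call among controls was higher instead of lower with the DESeq2 Wald test. Of the values of named members, 138 kept their call and 45 lost it under the other settings, and 940 kept and 54 lost it when a library was left out. Other scalings shifted the median of all miRNAs by up to 0.24 (TMM), 0.23 (DESeq2 size factors) and 0.28 (library size) on the log2 scale, and gave 3 higher and 13 lower, 1 and 10, and 2 and 8 member calls. Lower calls were 9.85%, 7.58% and 6.06% of member tests, beside 6.87%, 7.20% and 5.62% of all tests. No paired analysis was possible because the replicate numbers run from 1 to 48 and no number is shared between groups. Depth limits only control 3-d replicate 1.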
